A study of Mus musculus with 19 samples.

Results

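The genes described here are 10 transcripts that mark the resident macrophages of mouse bone marrow, Vcam1, Itgad, Spic, Cd163, Slc40a1, Hmox1, Mertk, Axl, Siglec1 and Trf. They were chosen by name, as markers of that cell type, with earlier results of these data known. All 10 are among the 50854 genes of the count table and among the 18652 that passed the filter on low counts. RNA was sequenced in bulk from monocytes sorted from the bone marrow of female REP mice aged 8 to 12 weeks, in which spectrally distinct fluorescent reporters mark inflammatory chemokine receptors, Clover for CCR1 and mRuby2 for CCR2. Marrow came from the femur and tibia after lysis of the red cells. The study gives a gate of CD11b+ Ly6C++ Ly6G- SiglecF- for monocytes sorted from resting mice for culture. The full gate used for these bulk libraries is not given in the sources used here. The 19 libraries fall into 5 groups: resting CCR1/2 monocytes (n = 4), resting CCR2 monocytes (n = 4), inflamed CCR1/2 monocytes (n = 3), inflamed CCR2 monocytes (n = 4) and libraries labelled inflamed CCR1 (n = 4). The resting libraries are labelled only as resting, and whether those mice carried a vehicle pump is not given in the sources used here. Inflamed mice carried a subcutaneous osmotic pump that released IL-3, IL-6, GM-CSF and IFN-α for a week. All 5 groups share the reporter strain, the sex and the tissue, and the sort defining the inflamed CCR1 libraries is not given in the sources used here. Nothing in the labels says whether the libraries of a group came from separate mice, so the p values measure only the spread between these samples, which may be technical.

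Resident macrophages of the marrow sit at the centre of erythroblastic islands, where they hold developing red cells, engulf the expelled nuclei and return iron from old red cells to the circulation. VCAM-1 and the integrin αD of Itgad serve adhesion, Spi-C is the transcription factor of red pulp and marrow macrophages, and CD163, heme oxygenase 1 and ferroportin (Slc40a1) take up haemoglobin, degrade haem and export the iron, which transferrin (Trf) carries. MerTK and Axl are receptor tyrosine kinases that recognise apoptotic cells through bridging proteins, and Siglec-1, or CD169, is the sialic acid receptor by which such macrophages are usually identified. Monocytes are made in the same marrow and carry some of these transcripts themselves, Hmox1 and Axl among them.

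RefSeq's table of promoters (build GRCm38.p6) held 4 of the 10 genes: Mertk, Cd163, Axl and Spic. The 250 bases before the start are printed for the TAM receptors Mertk and Axl because Axl was called between the resting populations and Mertk was not. The capitals mark the only match in the 4 promoters to any of 3 motifs searched on both strands, a PU box (GAGGAA), the core bound by PU.1 and Spi-C. It lies 130 to 125 bases upstream of the Axl start, on the opposite strand.
Mertk, chr2:128698665-128698914, plus strand: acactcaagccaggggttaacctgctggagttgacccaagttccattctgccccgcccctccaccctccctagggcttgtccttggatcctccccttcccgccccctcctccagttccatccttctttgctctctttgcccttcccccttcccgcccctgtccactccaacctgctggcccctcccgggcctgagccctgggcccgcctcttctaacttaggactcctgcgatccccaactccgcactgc
Axl, chr7:25788734-25788983, minus strand: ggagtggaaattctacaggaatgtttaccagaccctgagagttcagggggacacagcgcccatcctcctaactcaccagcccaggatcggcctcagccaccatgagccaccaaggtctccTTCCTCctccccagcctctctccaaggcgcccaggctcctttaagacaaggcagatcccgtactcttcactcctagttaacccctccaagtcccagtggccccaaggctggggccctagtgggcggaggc
Of 32851 promoters of the same length, 23.3% held a PU box, 2.98% the interferon-stimulated response element and 35.2% the antioxidant response element TGANNNNGC. The other two motifs had no match in these 4 windows, which says only that those letters are not there.

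Between 22268658 and 30502009 reads per library were counted on genes. Levels are given in CPM, the reads of a gene scaled to the size of its library with edgeR's TMM factors over the 19 libraries. The marker lists put the libraries labelled inflamed CCR1 apart from the rest. Ccr2, which marks monocytes that leave the marrow, was at 4.05 to 9.59 CPM in them and at 475 to 1368 CPM in the other 15 libraries. The summed level of 12 mature neutrophil markers was 104964 to 153572 CPM there and 842 to 3739 CPM elsewhere, while that of 12 monocyte markers was 7826 to 12460 CPM against 31555 to 57416 CPM. Mmp8 of the neutrophil list, named after its value was seen, went the other way, at means of 9.10 CPM there and 1044 CPM in inflamed CCR2. Ngp, a neutrophil granule protein, was at 86036 ± 12721 CPM (SD, n = 4), and the monocyte and macrophage growth factor receptor Csf1r at 17.7 ± 4.44 CPM. These markers go against the sort of monocytes for these 4 libraries, which are called by their label throughout. Ccr1, the gene of that label, was lowest in them, at 32.0 to 42.8 CPM. Its means were 310 and 209 CPM in inflamed CCR1/2 and CCR2 and 112 and 75.1 CPM in resting CCR1/2 and CCR2. At rest Ccr1 was higher in CCR1/2 than in CCR2 monocytes by 0.65 on the log2 scale (SE 0.11, adjusted p = 0.00154), under the fold cutoff. In bulk RNA, fewer cells of a type and less RNA per cell cannot be told apart, and this holds for each level below.

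**Figure D1:**
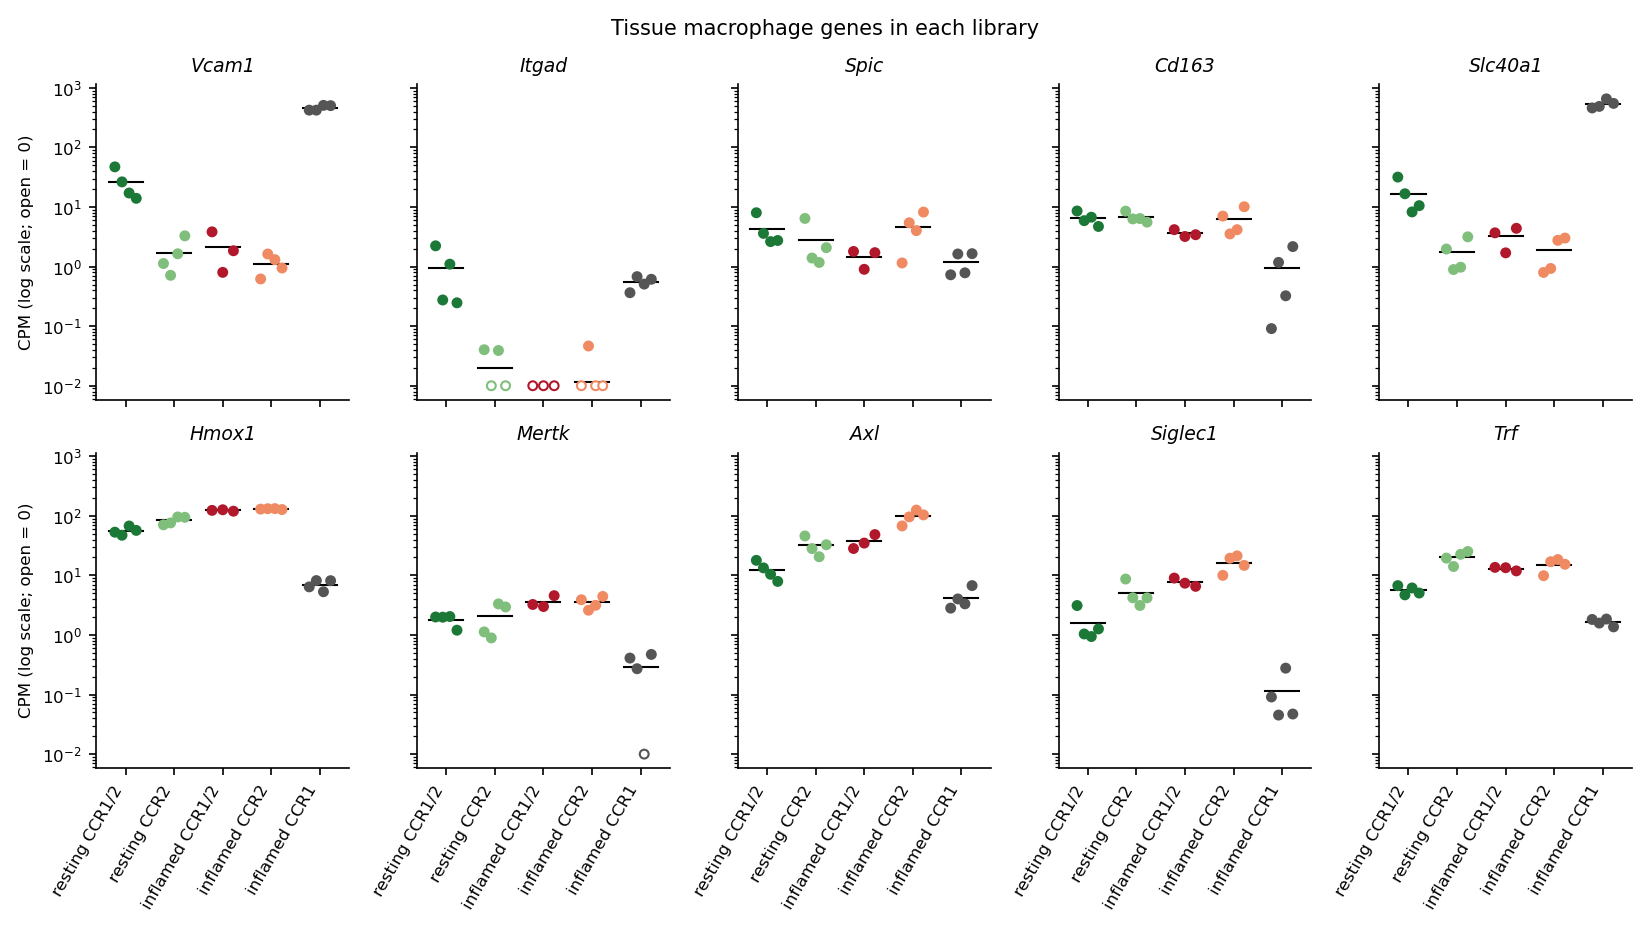
The plot shows the level of each of the 10 genes in every library in CPM on a log scale, by group, with a bar at the mean; open circles at the foot are libraries without a read. Vcam1 and Slc40a1 were at 13.99 to 47.2 and 8.27 to 31.8 CPM in the resting CCR1/2 libraries and above 400 CPM in the inflamed CCR1 libraries, whereas Hmox1, Mertk, Axl, Siglec1 and Trf were lowest in the latter.

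Vcam1 (ENSMUSG00000027962, chromosome 3, 116109949 to 116129688, minus strand) was 15.5-fold higher in resting CCR1/2 than in resting CCR2 monocytes. The 4 resting CCR1/2 libraries held 1438, 864, 438 and 454 reads, at 47.2, 26.4, 17.2 and 13.99 CPM, and the 4 resting CCR2 libraries held 28, 20, 42 and 79 reads, at 1.13, 0.714, 1.64 and 3.28 CPM. The groups did not overlap, and the log2 fold change was 4.06 (SE 0.54, adjusted p = 0.0013). Fitted with the replicate number as a block, it was 3.94 (adjusted p = 0.0254). In inflamed CCR1/2 monocytes Vcam1 was at 3.83, 0.80 and 1.84 CPM, below every resting CCR1/2 library, with a log2 fold change of −3.76 (SE 0.61, adjusted p = 0.000847). In inflamed CCR2 monocytes it was at 0.62 to 1.63 CPM, which overlapped the resting CCR2 libraries and the inflamed CCR1/2 libraries. The inflamed CCR1 libraries were at 422.8, 422.7, 508.6 and 502.8 CPM, 413-fold above the inflamed CCR2 libraries, a log2 fold change of 8.70 (SE 0.21, adjusted p = 6.82e-15). Neighbouring groups in the order of means overlapped below resting CCR1/2, so the inflamed CCR1/2, resting CCR2 and inflamed CCR2 levels, at means of 2.16, 1.69 and 1.13 CPM, could not be ordered.

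Itgad (ENSMUSG00000070369, chromosome 7, 128154376 to 128223816, plus strand), the αD integrin that pairs with the β2 chain and binds VCAM-1, was rare, and its reads were nearly all in the resting CCR1/2 and inflamed CCR1 libraries. The resting CCR1/2 libraries held 68, 9, 28 and 8 reads and the resting CCR2 libraries 1, 0, 1 and 0. All 4 of the former were above all 4 of the latter. The 113 against 2 reads give a ratio of 47.8, with a 95% counting interval of 12.9 to 399.9 that covers counting error only (adjusted p = 0.00301). Replicate 1 held 68 of the 113 reads, and without it the 45 against 2 reads give a ratio of 25.5 (6.65 to 216.6). No read was found in the 3 inflamed CCR1/2 libraries, which puts Itgad at least 19.7-fold lower than in resting CCR1/2, with the floor set at 3 reads over the group (adjusted p = 0.00651), or at least 10.5-fold lower without replicate 1 of resting CCR1/2. The inflamed CCR2 libraries held 1 read in all. The inflamed CCR1 libraries held 8, 15, 11 and 13 reads, 47.6 times the inflamed CCR2 level (95% counting interval 8.13 to 1918, adjusted p = 0.000123) and at least 11.4-fold above the inflamed CCR1/2 libraries. Other genes overlap 19.7% of the exonic bases of Itgad, and the strand of the counts is not given, so the source of some of these reads cannot be told apart.

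Slc40a1 (ENSMUSG00000025993, chromosome 1, 45908068 to 45926523, minus strand), which encodes ferroportin, the iron exporter, had nearly the same order as Vcam1. The resting CCR1/2 libraries held 968, 546, 211 and 342 reads, at 31.8, 16.7, 8.27 and 10.5 CPM, and the resting CCR2 libraries 49, 25, 25 and 76 reads, at 1.97, 0.892, 0.976 and 3.16 CPM. The groups did not overlap, with a 9.62-fold higher mean and a log2 fold change of 3.37 (SE 0.55, adjusted p = 0.00307). In the inflamed CCR1/2 libraries it was at 3.68, 1.70 and 4.39 CPM, all below the resting CCR1/2 libraries (log2 fold change −2.51, SE 0.55, adjusted p = 0.00477). In CCR2 monocytes it was 1.75 ± 1.06 CPM (SD, n = 4) at rest and 1.87 ± 1.17 CPM (SD, n = 4) when inflamed, and the interval of the log2 difference ran from −0.91 to 1.02. The inflamed CCR1 libraries were at 460, 488, 654 and 549 CPM, with log2 fold changes of 8.16 (SE 0.41, adjusted p = 1.6e-07) against inflamed CCR2 and 7.35 (SE 0.33, adjusted p = 4.21e-07) against inflamed CCR1/2 monocytes. Per kilobase of exon, Vcam1 and Slc40a1 were at 52.3 and 59.7 CPM in these libraries, above Hmox1 at 4.01.

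**Figure D2:**
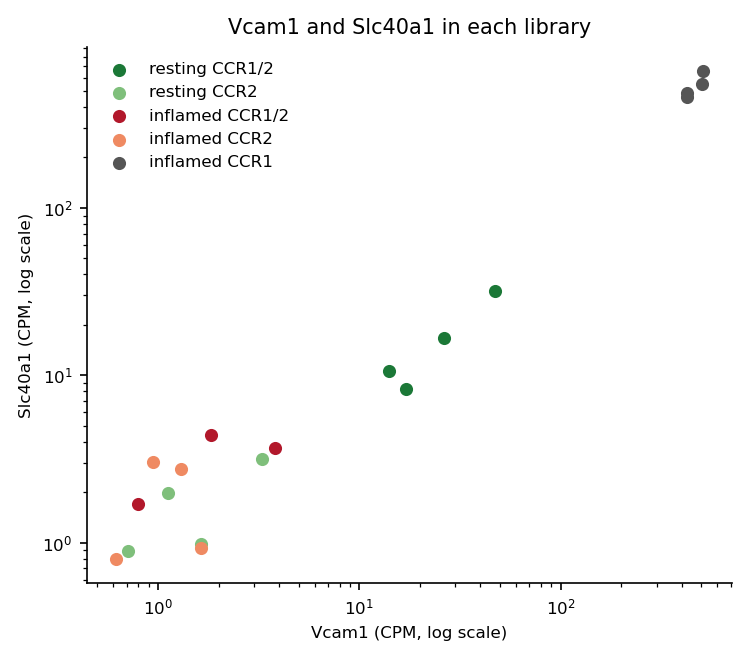
Each point is 1 library, with Vcam1 on the x axis and Slc40a1 on the y axis, both in CPM on log scales, coloured by group. The 4 resting CCR1/2 libraries lie between the 4 inflamed CCR1 libraries and the other 11, and replicate 1 of resting CCR1/2, at 47.2 and 31.8 CPM, is the highest of its group on both axes.

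Replicate 1 of the resting CCR1/2 monocytes had the highest level of its group for 8 of the 10 genes, Vcam1, Itgad and Slc40a1 included. Without it, the log2 fold changes against resting CCR2 were 3.60 for Vcam1 (adjusted p = 0.000276) and 2.85 for Slc40a1 (adjusted p = 0.0006), and both were still called, as was Itgad (adjusted p = 0.00909). Against inflamed CCR1/2 the falls without it were smaller, at −3.23 for Vcam1, −1.93 for Slc40a1 and −1.10 for Spic, and all 3 were still called, while the rise of Siglec1 was larger, at 2.74. The same library was also highest for the complement genes C1qa, C1qb and C1qc and for Cd5l, named after their values were seen. They belong to a list of 25 other erythroblastic island and marrow macrophage genes. The summed level of that list was highest in replicate 3 of the group, as was Csf1r of the list, at 483 CPM against 427 CPM in replicate 1.

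Spic (ENSMUSG00000004359, chromosome 10, 88674772 to 88685015, minus strand), the gene of the transcription factor Spi-C, was spread widely within the groups. The resting CCR1/2 libraries were at 8.01, 3.61, 2.63 and 2.74 CPM and the resting CCR2 libraries at 6.43, 1.39, 1.17 and 2.08 CPM. The groups overlapped, and the log2 fold change of 0.70 (SE 0.55, adjusted p = 0.45) did not pass the test. Same-numbered resting libraries deviated together, and Spic was higher in CCR1/2 in each of the 4 numbered pairs. With the replicate number as a block the log2 fold change was 0.85 (adjusted p = 0.0123), which passes the adjusted p and is under the fold cutoff. Replicate 1 was the highest library of both resting groups. Without replicate 1 of resting CCR2, Spic was called higher in resting CCR1/2 (log2 fold change 1.57, adjusted p = 0.0385) and higher in inflamed than in resting CCR2 monocytes (1.61, adjusted p = 0.0183). The inflamed CCR1/2 libraries, at 1.79, 0.90 and 1.71 CPM, were below all resting CCR1/2 libraries, and the fall of 1.68 on the log2 scale was called (SE 0.47, adjusted p = 0.0121), but not without replicate 3 of the inflamed CCR1/2 monocytes (adjusted p = 0.0584). In the inflamed CCR2 libraries it ranged from 1.15 to 8.22 CPM, the widest range of the 5 groups.

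Cd163 (ENSMUSG00000008845, chromosome 6, 124304656 to 124330527, plus strand), the haemoglobin scavenger receptor, did not differ between the resting populations beyond the spread of the libraries. It was at 8.57, 5.90, 6.74 and 4.72 CPM in the resting CCR1/2 libraries and at 8.52, 6.31, 6.40 and 5.57 CPM in the resting CCR2 libraries, and the log2 difference of 0.03 had an interval of −0.38 to 0.44. In the inflamed CCR1/2 libraries it was at 4.17, 3.20 and 3.43 CPM, below every resting CCR1/2 library. The log2 fold change of −0.99 (adjusted p = 0.00747) was just under the fold cutoff, and passed it without replicate 4 of resting CCR1/2 (−1.13) or replicate 2 of inflamed CCR1/2 (−1.09). In the inflamed CCR1 libraries it was at 0.091 to 2.17 CPM, lower than in inflamed CCR2 monocytes (log2 fold change −2.73, SE 0.68, adjusted p = 0.00771). Against inflamed CCR1/2 monocytes the adjusted p was 0.0617, although the libraries did not overlap, and Cd163 was called without replicate 1 or 4 of inflamed CCR1 (adjusted p = 0.0408 and 0.00529).

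Hmox1 (ENSMUSG00000005413, chromosome 8, 75093621 to 75100589, plus strand), which degrades haem, was the most abundant of the 10 genes per kilobase of exon in all 4 monocyte groups, at 32.1 to 74.3 CPM per kilobase. It was at 53.1, 47.2, 67.5 and 56.9 CPM in resting CCR1/2, at 70.5, 76.0, 95.7 and 94.4 CPM in resting CCR2, at 123.3, 126.3 and 119.5 CPM in inflamed CCR1/2 and at 129.5, 131.6, 132.1 and 127.4 CPM in inflamed CCR2 libraries. No library of one group reached the range of the next group, but the step between inflamed CCR1/2 and inflamed CCR2 had an adjusted p of 0.818. Inflammation was followed by a rise of 1.01 (log2, SE 0.10, adjusted p = 9.65e-06) in CCR1/2 monocytes, which was called, and by a change of 0.56 (SE 0.11, adjusted p = 0.000508) in CCR2 monocytes, which was under the fold cutoff. The call in CCR1/2 monocytes sits at the cutoff: without replicate 2 or 4 of resting CCR1/2 or replicate 3 of inflamed CCR1/2 the log2 fold change was 0.98 to 0.99. At rest Hmox1 was lower in CCR1/2 monocytes by 0.51 on the log2 scale, an adjusted p of 0.00813 under the fold cutoff. The inflamed CCR1 libraries were at 5.32 to 8.18 CPM, 18.6-fold below inflamed CCR2.

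Trf (ENSMUSG00000032554, chromosome 9, 103204001 to 103230444, minus strand), which encodes transferrin, the carrier of iron in plasma, was the one gene of the 10 for which the inflammation effects of the populations were called different. It was at 6.73, 4.71, 6.15 and 5.05 CPM in the resting CCR1/2 libraries and at 19.5, 14.1, 22.6 and 25.2 CPM in the resting CCR2 libraries, a log2 fold change of −1.76 (SE 0.18, adjusted p = 7.7e-05) with no overlap. With inflammation it rose to 13.6, 13.5 and 11.9 CPM in CCR1/2 monocytes (log2 fold change 1.07, SE 0.18, adjusted p = 0.000425; 0.9958 and so under the fold cutoff without replicate 4 of resting CCR1/2), while the inflamed CCR2 libraries, at 9.88, 17.0, 18.4 and 15.4 CPM, overlapped the resting ones (−0.49, SE 0.20, adjusted p = 0.0582). The inflammation effects differed by 1.52 on the log2 scale (SE 0.28, adjusted p = 0.0273), the only interaction called among the 10 genes, against 0.397% of all genes tested, where 45 of the calls were higher and 29 lower, or 85 and 28 with RLE size factors. Leaving out any 1 of 5 libraries lifted that adjusted p above the threshold, to between 0.053 and 0.131: replicates 2 and 4 of resting CCR1/2, replicate 3 of resting CCR2, replicate 3 of inflamed CCR1/2 and replicate 1 of inflamed CCR2. After inflammation the populations overlapped, and the log2 difference of −0.24 had an interval of −0.65 to 0.17. The gene model Gm20425 covers 63.5% of the exonic bases of Trf on the same strand, so reads on the shared bases went to neither gene where the counting dropped reads on several genes, and the level of Trf is uncertain.

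Axl (ENSMUSG00000002602, chromosome 7, 25757273 to 25788705, minus strand) was lowest in resting CCR1/2 monocytes and highest in inflamed CCR2 monocytes among the 4 monocyte groups. It was at 17.9, 13.4, 10.4 and 7.92 CPM in resting CCR1/2 and at 45.9, 28.2, 20.5 and 32.7 CPM in resting CCR2 libraries, with no overlap (log2 fold change −1.28, SE 0.29, adjusted p = 0.0112; 0.0699 with no filter on low counts). It rose with inflammation in CCR2 monocytes, to 67.6, 95.9, 124.7 and 103.5 CPM (log2 fold change 1.55, SE 0.23, adjusted p = 8.71e-05). In CCR1/2 monocytes it rose to 28.3, 34.9 and 48.4 CPM (1.44, SE 0.31, adjusted p = 0.00403), and the difference between these rises, −0.14 (SE 0.42, adjusted p = 0.934), was not called. The 3 inflamed CCR1/2 libraries were all below the 4 inflamed CCR2 libraries, and the log2 fold change of −1.41 (SE 0.24) had an adjusted p of 0.0566. The inflamed CCR1 libraries were at 2.82 to 6.74 CPM.

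Siglec1 (ENSMUSG00000027322, chromosome 2, 131069220 to 131086765, minus strand) had the same order of group means as Axl. It was at 3.12, 1.04, 0.941 and 1.26 CPM in resting CCR1/2 libraries and at 8.68, 4.21, 3.12 and 4.20 CPM in resting CCR2 libraries, which did not overlap by a narrow margin, the nearest being 3.119 and 3.124 CPM. The log2 fold change of −1.59 (SE 0.42, adjusted p = 0.0213) was no longer called without replicate 2, 3 or 4 of resting CCR1/2 or replicate 1 of resting CCR2, where the adjusted p ran from 0.0527 to 0.0931. With inflammation it rose to 10.0, 19.4, 21.2 and 14.7 CPM in CCR2 monocytes (log2 fold change 1.62, SE 0.30, adjusted p = 0.000385) and to 9.02, 7.40 and 6.54 CPM in CCR1/2 monocytes (2.12, SE 0.40, adjusted p = 0.000998). The difference between these changes was 0.46 (SE 0.53, adjusted p = 0.771). In the inflamed CCR1 libraries it had 2, 1, 6 and 1 reads, 142-fold below inflamed CCR2. The summed levels of type I interferon-stimulated genes and of dendritic cell markers were highest in replicate 1 of each resting group and in replicate 3 of inflamed CCR2, the libraries with the highest Axl and Siglec1 of their groups. In inflamed CCR1/2 this did not hold: the interferon-stimulated genes were highest in replicate 3, the dendritic cell markers and Axl in replicate 4 and Siglec1 in replicate 2. The 14 interferon-stimulated genes tested summed to 643 to 1254 CPM in resting CCR1/2, 1431 to 2515 in resting CCR2, 2581 to 3726 in inflamed CCR1/2 and 2230 to 4250 in inflamed CCR2 libraries, and the 12 dendritic cell markers to 112 to 256, 387 to 990, 194 to 245 and 335 to 1054 CPM. None of the 12 dendritic cell markers was without a read in any of these groups, and the part of either list in the result was not tested.

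Mertk (ENSMUSG00000014361, chromosome 2, 128698956 to 128802894, plus strand) did not differ between the resting populations beyond the spread of the libraries. It was at 2.00, 1.99, 2.04 and 1.20 CPM in resting CCR1/2 and at 1.13, 0.892, 3.32 and 2.95 CPM in resting CCR2 libraries, and the log2 difference of −0.10 had an interval of −0.89 to 0.68. In inflamed CCR1/2 monocytes it was at 3.25, 3.0 and 4.57 CPM, above every resting CCR1/2 library, with a log2 fold change of 0.86 (SE 0.30, adjusted p = 0.0369) under the fold cutoff. Inflamed CCR2 libraries were at 2.60 to 4.43 CPM, a log2 fold change of 0.71 (SE 0.38, adjusted p = 0.139) from rest, called without replicate 3 of resting CCR2 (1.10, adjusted p = 0.0348). The inflamed CCR1 libraries held 9, 6, 0 and 10 reads, lower than either inflamed monocyte group (log2 fold changes −3.58 and −3.62, adjusted p = 1.16e-05 and 0.000135).

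**Figure D3:**
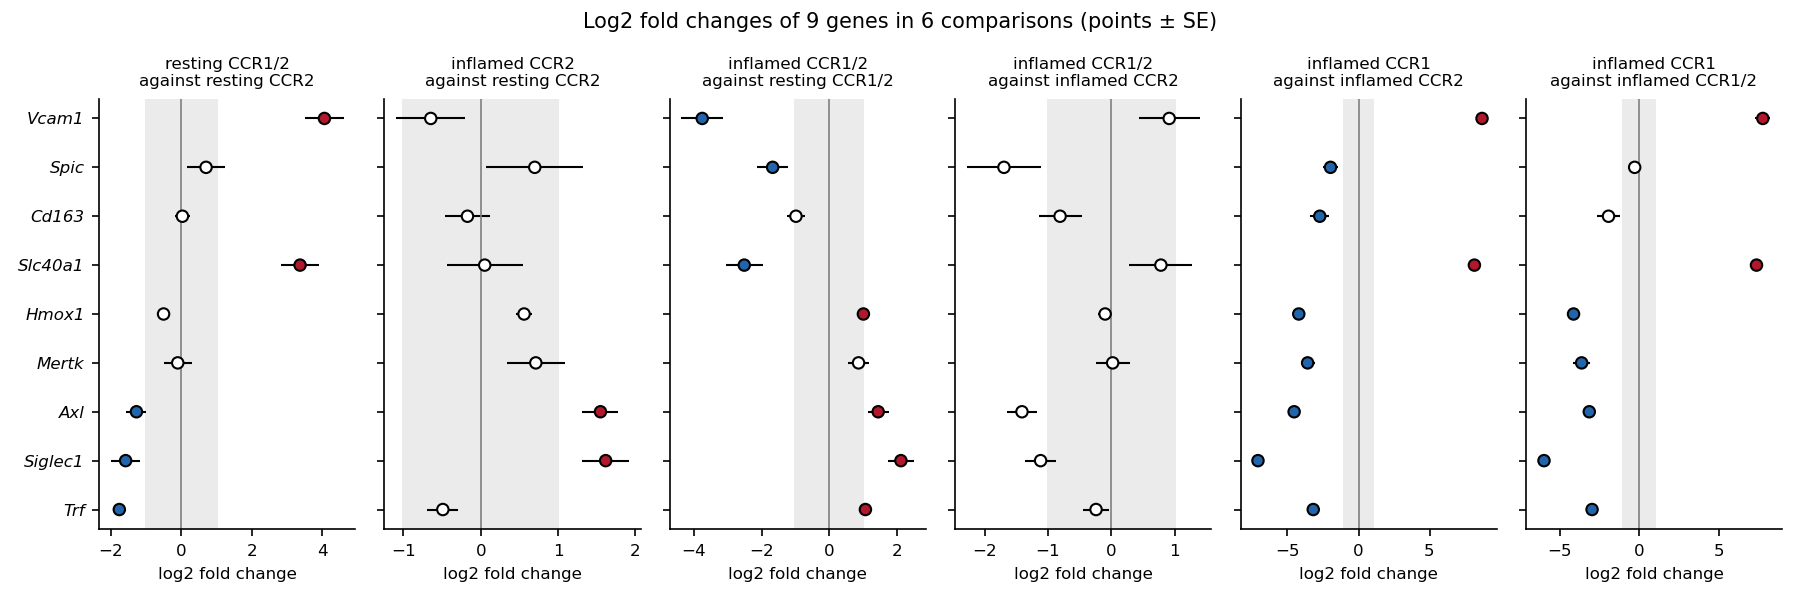
The plot shows log2 fold changes of 9 of the 10 genes with their SE in 6 comparisons, each on its own scale; red and blue points were called higher and lower, open points were not called, and the grey band marks changes under the fold cutoff. Itgad is left out because its fitted fold change rests on groups with 0 to 2 reads. The first panel holds Vcam1 and Slc40a1 to the right and Axl, Siglec1 and Trf to the left, and the third panel has the opposite signs for these 5 genes.

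Between the resting populations, 3 of the 10 genes were called higher in CCR1/2 monocytes (Vcam1, Itgad and Slc40a1) and 3 lower (Axl, Siglec1 and Trf). The study itself lists Vcam1 and Itgad as higher in CCR1/2 than in CCR2 monocytes, so their calls here are not new evidence. The call needed an adjusted p below 0.05 with a log2 fold change of 1 or more in either direction, which 2.34% of the 18652 genes tested met upward and 1.9% downward. The groups did not overlap for 7 genes, the 6 called and Hmox1. Each of these gave p = 0.0286 in the two-sided exact permutation test, unadjusted, the smallest that 4 against 4 libraries allow. That test exchanged libraries without regard to replicate number, although same-numbered resting libraries deviated together. Freedom from overlap was not counted over all genes. By the unadjusted p of the fit, 7 of the 10 genes and 5439 of the 18652 tested were under 0.05. The median log2 fold change of the 10 genes was −0.04, beside 0.03 over all genes. Of a list of 25 other erythroblastic island and marrow macrophage genes, 5 were called higher and 2 lower. The 5 were Cd5l, C1qa, C1qb, C1qc and Igf1, secreted products of tissue macrophages, and the 2 were Maf, a macrophage transcription factor, and the Fc receptor Fcgr1; apart from Fcgr1 they were named after their values were seen. Cd5l was at 1.96 to 3.81 CPM in resting CCR1/2 and at 0.285 to 0.402 CPM in resting CCR2 libraries (log2 fold change 3.04, SE 0.33, adjusted p = 0.000106), and C1qc at 5.45 to 19.4 and 1.33 to 4.14 CPM (2.30, adjusted p = 0.00406). The most abundant genes of the list did not follow: Adgre1, which encodes F4/80, Cd68 and Csf1r had log2 fold changes of −0.70, −0.60 and −0.97, each with an adjusted p under 0.05 and under the fold cutoff. Of 23 haem and iron genes tested none was called in either direction, though 9 had an adjusted p under the threshold, and of 20 apoptotic cell uptake genes Stab2 was called higher and Cd36 lower. The median log2 fold changes of these 3 lists were −0.02, −0.30 and −0.39. Of 10 integrin partners and ligands, none was called higher and Icam1 was called lower, with Itgb2, the β2 chain that pairs with αD, at 872 and 1107 CPM.

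Markers of other marrow cells moved with the resting comparison as follows. The 12 neutrophil markers summed to 2634 to 3288 CPM in resting CCR1/2 and 842 to 1146 CPM in resting CCR2 libraries, and 5 of them were called higher and 7 not called. S100a8 held most of the sum in resting CCR1/2, at means of 1770 and 156 CPM in the 2 groups. Mmp8, at 451 and 548 CPM, and Ngp, at 26.1 and 27.3 CPM, were among those not called. The 14 erythroid markers, Hbb-bs and Hba-a1 among them, summed to 62.5 to 192 and 103 to 311 CPM, with none called. The 8 endothelial markers tested summed to 1.88 to 4.04 CPM and 1.57 to 2.53 CPM, with 2 called higher, and 1 and 0 of the 8 had no read in resting CCR1/2 and resting CCR2. The 6 megakaryocyte markers summed to at most 1.08 CPM, and the 9 B cell markers to 28.4 to 34.3 and 35.2 to 42.7 CPM, with 0 and 1 called. Cd79b held most of the B cell sum, at means of 26.1 and 35.2 CPM. The 8 stromal markers tested summed to 113 to 219 and 148 to 314 CPM, with none called, and 0 and 1 of the 8 had no read. Lpl held nearly all of this sum, at means of 163 and 226 CPM. No other of the 8 had a mean above 0.585 CPM in either group, that of Pdgfrb in resting CCR2. Of the 12 monocyte markers 2 were called lower, and of the 12 dendritic cell markers 6. The part of these cells in the result was not tested.

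With inflammation, Axl and Siglec1 rose in both populations, and the 4 genes lower in inflamed than in resting CCR1/2 monocytes included the 3 that had been higher there at rest. In CCR2 monocytes 2 of 10 genes were called higher and 0 lower, against 9.37% and 19.2% of all genes. An unadjusted p under 0.05 was found for 4 of the 10 and for 9963 of the 18652 genes tested. In CCR1/2 monocytes 4 were called higher (Hmox1, Axl, Siglec1 and Trf) and 4 lower (Vcam1, Itgad, Spic and Slc40a1), against 9.16% and 19.4% of all genes. Medians of the 10 genes were 0.31 and −0.06 on the log2 scale, beside −0.10 and −0.26 over all genes. All 10 genes were free of overlap between resting and inflamed CCR1/2 libraries, 5 higher and 5 lower. However, 3 against 4 libraries cannot go below p = 0.0571 in the exact permutation test, and freedom from overlap was not counted over all genes. By the unadjusted p of the fit, all 10 genes and 9764 of the 18652 tested were under 0.05. The comparisons of resting populations and of inflamed with resting CCR1/2 monocytes share the resting CCR1/2 libraries, so the opposite signs of Vcam1, Slc40a1, Axl, Siglec1 and Trf in them are not independent. Whether the effect of inflammation differed between populations was tested directly, and for Vcam1 the difference of −3.14 (SE 0.81) had an adjusted p of 0.11 and for Slc40a1 that of −2.60 (SE 0.82) an adjusted p of 0.188.

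In the 25 other island and marrow macrophage genes, inflammation was followed by 5 calls higher and 7 lower in CCR1/2 monocytes and by 5 higher and 3 lower in CCR2 monocytes. Adgre1, Cd68, Csf1r and Fcgr1, the most abundant 4, were all called higher in CCR1/2 monocytes, while Cd5l, C1qa, C1qc and Igf1 were among those lower. C1qc fell from 10.7 ± 6.04 CPM (SD, n = 4) to 1.86 ± 1.09 CPM (SD, n = 3) in CCR1/2 monocytes (log2 fold change −2.65, adjusted p = 0.00339), and was at 2.30 and 3.28 CPM in resting and inflamed CCR2 monocytes. The interaction was called for 4 genes of the list, C1qa (−3.25), C1qb (−2.81) and C1qc (−3.12) lower and Adgre1 (0.80) higher. Of 23 haem and iron genes, 6 were called higher and 4 lower in each population, with Hp and Lrp1 higher and Fth1 lower in both; copies of Fth1 elsewhere in the genome make its level uncertain. The median of these genes was 0.23 in CCR1/2 and 0.12 in CCR2 monocytes. Of 20 apoptotic cell uptake genes, 3 were called higher and 2 lower in CCR1/2, and 3 higher and 4 lower in CCR2 monocytes, with Lrp1 and Cd300lf higher in both. Of the bridging proteins for MerTK and Axl, named after their values were seen, Gas6 was at no more than 0.392 CPM in any library, and Pros1 was at 72.3 and 126 CPM in resting CCR1/2 and CCR2 and at 71.3 and 94.9 CPM in inflamed CCR1/2 and CCR2 monocytes. Of 14 interferon-stimulated genes, 10 were called higher and 1 lower in CCR1/2, and 3 higher and 2 lower in CCR2 monocytes, with Irf7, Oasl2, Oas3 and Stat2 the most abundant. The interaction, which tests the difference between populations directly, was called for 0 of these 14. Erythroid markers were lower when inflamed, with 8 of 14 called lower in CCR1/2 and 11 of 14 in CCR2 monocytes, and summed to at most 5.58 CPM. The part of erythroid RNA in these results was not tested.

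**Figure D4:**
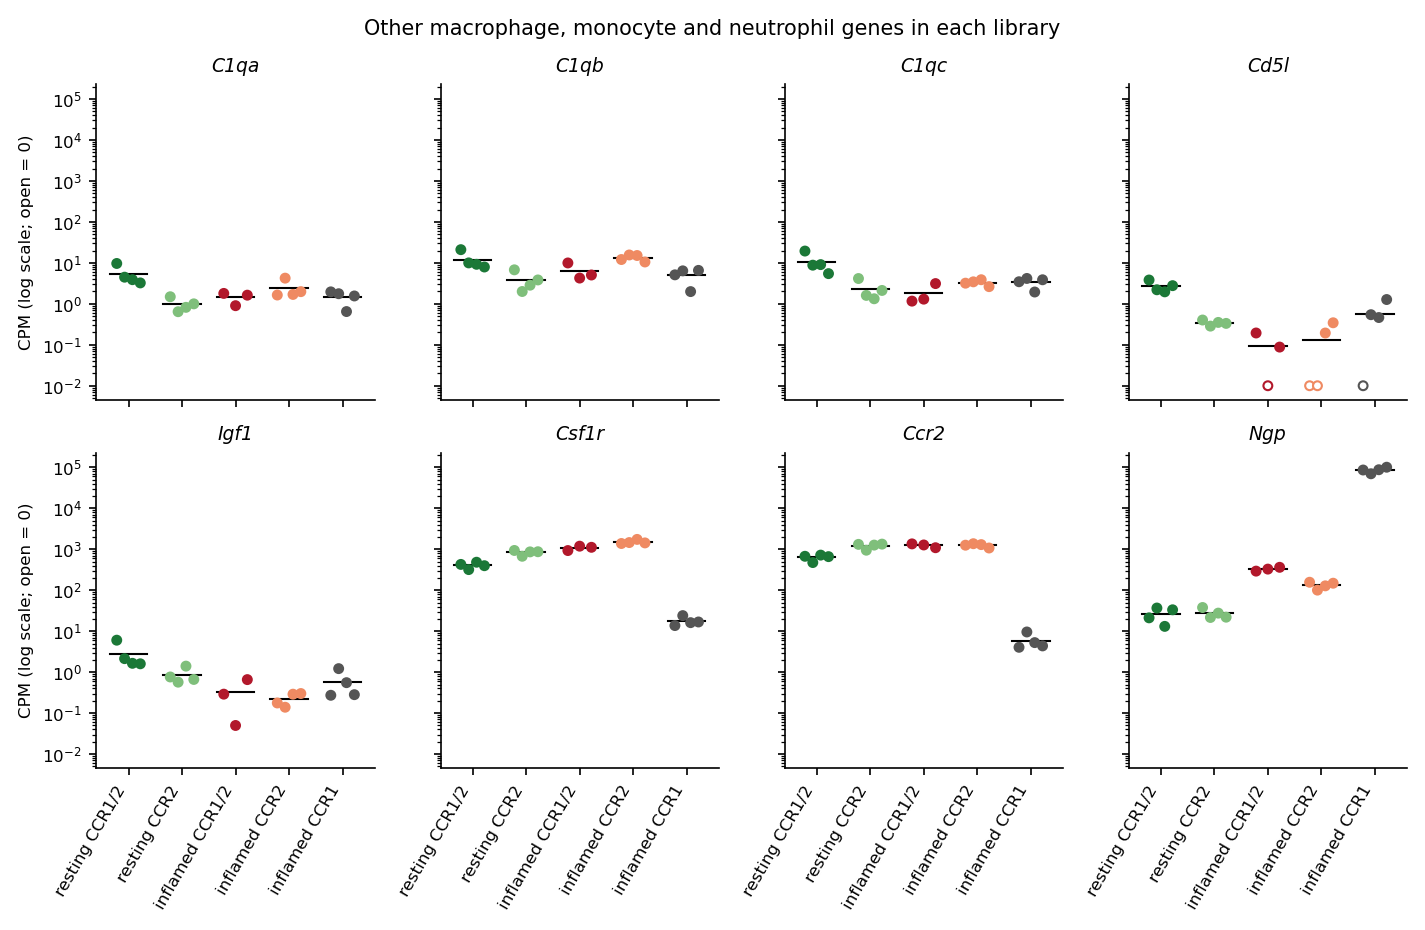
The plot shows the level in every library, in CPM on a log scale by group, of 5 other macrophage genes (C1qa, C1qb, C1qc, Cd5l and Igf1), the monocyte genes Csf1r and Ccr2 and the neutrophil gene Ngp; bars are means and open circles libraries without a read. The group means of the 5 are highest in resting CCR1/2 apart from that of C1qb, 12.0 CPM there and 13.3 CPM in inflamed CCR2. The 5 are those of the list of 25 that were called higher in resting CCR1/2 than in resting CCR2, so this order follows in part from their choice. The most abundant of the 25, Adgre1, Cd68, Fcgr1 and Csf1r, had lower means in resting CCR1/2 than in resting CCR2. Csf1r, Ccr2 and Ngp separate the inflamed CCR1 libraries from the other 15.

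Between inflamed CCR1/2 and inflamed CCR2 monocytes, edgeR called 0 of the 10 genes, against 0.102% of all genes higher and 0.0429% lower, and DESeq2 called 2, Axl and Siglec1, both lower in CCR1/2. By unadjusted p under 0.05 there were 4 of the 10, Spic, Cd163, Axl and Siglec1, and 1675 of the 18652 genes tested. All 4 had lower means in CCR1/2 monocytes, by 1.69 (SE 0.59, adjusted p = 0.426), 0.81 (SE 0.34, adjusted p = 0.495), 1.41 (SE 0.24, adjusted p = 0.0566) and 1.12 (SE 0.25, adjusted p = 0.128) on the log2 scale. Without replicate 1 of the inflamed CCR2 monocytes, the lowest library of its group for 7 of the 10 genes, Spic, Axl and Siglec1 were called lower in CCR1/2 (adjusted p = 0.0382, 0.0102 and 0.0242), as was Axl without replicate 4 of inflamed CCR1/2 (adjusted p = 0.0282). For Vcam1 and Slc40a1 the intervals of the log2 difference were −0.03 to 1.85 and −0.19 to 1.75. The differences between the resting populations were 4.06 (SE 0.54) and 3.37 (SE 0.55). The edgeR test of the interaction, which compares these differences directly, called neither gene (adjusted p = 0.11 and 0.188). The median over the 10 genes was −0.53, beside −0.03 over all genes. None of the 25 island genes, 23 haem and iron genes, 20 uptake genes or 14 interferon-stimulated genes was called either.

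In the libraries labelled inflamed CCR1, Vcam1, Slc40a1 and Itgad were higher than in either inflamed monocyte group, Itgad at only 0.541 CPM, and most of the other genes were lower. Against inflamed CCR2 monocytes 3 genes were called higher and 7 lower, beside 14.4% and 16.8% of all genes, and against inflamed CCR1/2 monocytes 3 higher and 5 lower, beside 13.2% and 14.6%. The median log2 fold changes of the 10 genes were −2.96 and −2.45, with −0.01 and 0.00 over all genes. Siglec1 (−7.08 and −5.98), Axl (−4.53 and −3.14) and Hmox1 (−4.21 and −4.13) were among those called lower in both, and Spic (−0.29, adjusted p = 0.611) was not called against inflamed CCR1/2 monocytes. Both comparisons share the 4 inflamed CCR1 libraries. Of the 25 island genes 1, Lyve1, was called higher and 10 lower against inflamed CCR2 monocytes, and Cd5l was at 0 to 1.27 CPM and C1qc at 1.94 to 4.16 CPM. The haem and iron list had 5 called higher and 13 lower, and Tfrc, the transferrin receptor, named after its value was seen, was at 145 CPM, against 9.08 CPM in inflamed CCR2 monocytes. The integrin list had 1 higher and 5 lower, with Itgb2 at 1700 ± 246 CPM (SD, n = 4) and Itga4, the chain of the VCAM-1 ligand VLA-4, at 50.6 CPM against 300 CPM. Of the other marker lists, megakaryocyte markers summed to 4.21 to 5.10 CPM and endothelial markers to 3.79 to 4.23 CPM, and erythroid markers to 17.3 to 23.7 CPM. Car2 held most of the erythroid sum, at a mean of 18.96 CPM, and Hbb-bs was at 0.126 CPM. The summed level of neutrophil markers was high in the same 4 libraries, as given above. Of the 12, 10 were called higher than in inflamed CCR2 monocytes and 1, Mmp8, lower. The part of any cell type in the result was not tested.

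Over the 5 group means of log2 CPM, each gene centred on its own mean, the genes most like each of the 10 were sought among 11176 with a mean of at least 1 CPM. The measure was the mean absolute log2 difference, a description over 5 groups that share their libraries. Vcam1 was closest to Clec4b2 (0.34), Slc40a1 (0.38) and Nkg7 (0.41), and Slc40a1 to Prss57 (0.30), Vcam1 (0.38) and Far2 (0.38). Nkg7 was at 48.4 CPM in resting CCR1/2, 8.33 CPM in resting CCR2 and 1562 CPM in inflamed CCR1 libraries, and Prss57, a protease of neutrophil primary granules, at 11.5, 1.59 and 405 CPM. Hmox1 was closest to C920009B18Rik (0.04), Psap (0.05) and Mfsd7a (0.08), Mertk to Gm46224 (0.03), Tnfaip1 (0.09) and Anxa6 (0.10), and Axl to Adgrg5 (0.13), Itgax (0.24) and Lmna (0.25). Siglec1 was closest to Serpinb8 (0.22), 2210408F21Rik (0.26) and Irf2bpl (0.27), and Trf to Sbf2 (0.13), Timp2 (0.15) and Rcan1 (0.18). The neighbours of Cd163 were a gene listed without a symbol (0.09), D730003I15Rik (0.10) and Snx30 (0.13), and those of Spic were Hmgb1-ps8 (0.27), Gm16638 (0.29) and Gm20696 (0.29). Itgad was below 1 CPM and was not compared in this way.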

How the data were processed

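The authors assessed the paired-end reads with fastp, aligned them to GRCm38 with STAR 2.7.10a, kept reads aligned to 1 place and counted them per Ensembl gene. The deposited values are these raw counts, not normalized. Whether the counting used strand is not given in the sources used here. Of 20 columns of counts, 19 match a sample and 1, named as replicate 1 of inflamed CCR1/2, matches none and was not used. Depth was 22268658 to 30502009 reads on genes per library, without molecular identifiers, so intervals and the floor of 3 reads cover counting error only.

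Tests covered the 18652 of 50854 genes that averaged 1 read or more per library, all 10 genes described here among them. For each comparison edgeR 4.0.16 (R 4.3.3) was fitted on its own libraries (TMM, robust quasi-likelihood F test, two-sided, Benjamini-Hochberg adjustment over all genes tested), and the interaction over 15 libraries at an adjusted p below 0.05. The fit stands in for the DESeq2 test of the study's methods, whose cutoffs were kept. SE is the log2 fold change over the root of F. Intervals of log2 differences are 95% by the normal approximation, which makes them narrower than the F test implies. Counting intervals are exact. Exact permutation tests used scipy 1.17.1. Positions and exonic lengths are from GENCODE M21. Scripts were tested on simulated counts.

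Alternatives were DESeq2 1.42.0, RLE size factors, no filter, filterByExpr, all 19 libraries in one fit, the replicate block, no fold cutoff and each library left out; a filter set on the compared libraries alone was chosen after seeing the data. No 2 libraries of a group agreed within sampling noise. Same-numbered resting CCR1/2 and CCR2 libraries deviated together (r of 0.31 to 0.61 over 4 pairs, 7685 genes), as did inflamed CCR1 and CCR2 libraries (0.13 to 0.25), on this correlation alone, and the block left their counts of called genes at 6 and 10. The genes, lists and alternatives were chosen with earlier results of these data known. All 10 genes are named; of each list up to 4 genes with the highest mean CPM, and for each gene the 3 with the most similar group means. Others were named after their values were seen. Stab1, Ncoa4, Icam3, Irf9 and Ahsp of the lists are not analysed here.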

Additional observations from a re-analysis of the deposited data

Results flagged for a closer look

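In groups of 4 libraries, 3 of 40 tests of a gene's highest or lowest library found it far from the others, and chance gives about 1 in 20. Siglec1 in resting CCR1/2 monocytes was at 3.119 CPM in replicate 1, with the next library at 1.263 CPM. Mertk in the same group was at 1.202 CPM in replicate 4, with the nearest at 1.987 CPM. Itgad in inflamed CCR2 monocytes was at 0.04648 CPM in replicate 2, which is 1 read, and had no read in the other 3 libraries. Any single read beside 3 libraries without a read is flagged in this way, so the chance of 1 in 20 does not apply to it. The effect of inflammation on Trf was larger in CCR1/2 than in CCR2 monocytes by 1.5152 on the log2 scale, as given by the test of the interaction.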

How the results depend on the processing

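Leaving out 1 library at a time gave 600 values of single genes, in which 14 calls were lost and 11 gained. With the lowest and highest of these for each gene beside the other settings, 582 of 622 values kept their direction and their side of the threshold, 22 newly passed it, 7 no longer did and 11 changed sign; none of the 11 had been called, and the cause was not tested. With 1 library left out, the log2 fold change between resting populations ran from −0.1468 (without replicate 1 of CCR1/2) to 0.1851 for Cd163 and from −0.3527 to 0.2138 (without replicate 3 of CCR2) for Mertk. Between inflamed and resting CCR2 it ran from −0.53 to 0.0311 for Cd163 and from −0.2964 to 0.5536 for Slc40a1, and between the inflamed populations from −0.1747 to 0.1521 for Mertk. The interaction ran from −0.21 to 0.3578 for Mertk and from −0.3898 to 0.0972 for Axl. Cd163 between resting populations was −0.0492 with all 19 libraries in one fit. With the replicate block Mertk was 0.0289 between resting populations and −0.0177 in the interaction, and Slc40a1 was −0.0081 between inflamed and resting CCR2.

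The number of the 10 genes called between inflamed CCR1/2 and inflamed CCR2 was 0, but 2 with DESeq2, 2 without the filter on low counts, 1 with all 19 libraries in one fit, 3 with the replicate block and 0 to 3 with 1 library left out. The numbers do not pair these libraries (r of −0.31 to 0.50 over 3 pairs), and the block called Spic, Axl and Siglec1 lower (adjusted p = 0.0115, 0.00521 and 0.0143). Over all genes this comparison gave 27 calls, 106 with DESeq2, 51 without the filter, 53 in one fit and 80 with the block. The interaction called 1 of the 10 genes, 2 with DESeq2 (Trf and Vcam1, the latter at −3.07, adjusted p = 0.017) and 0 to 1 with 1 library left out. Over all genes it gave 74 calls and 545 with DESeq2, 113 with RLE size factors, 145 without the filter, 122 with filterByExpr, 187 in one fit, 222 with the block and 40 at an absolute log2 interaction of 1 or more. With no fold cutoff, calls over all genes went from 792 to 3149 between resting populations, from 5327 to 8921 and 5320 to 8586 for inflammation in CCR2 and CCR1/2, and from 5830 to 8972 and 5172 to 8061 for inflamed CCR1 against CCR2 and CCR1/2. Counts of the 10 genes in the other comparisons stayed within 1.5 times under every setting run, which leaves Itgad untested under filterByExpr. With RLE size factors the median shift of the log2 fold changes in a comparison was 0.09 at most, between inflamed and resting CCR1/2. Leaving out the inflamed CCR2 library with the only Itgad read gives no value for Itgad there. Depth limits Itgad, with 0 to 2 reads in 3 groups, and Siglec1 and Mertk in the inflamed CCR1 libraries.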
